A study of Homo sapiens with 4 samples.

Results

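Kinesins are motor proteins that use ATP to move along microtubules or to take microtubules apart. The family divides into motors that build and drive the mitotic spindle and cut the cell apart at cytokinesis, motors that carry organelles, vesicles and RNA through the interphase cell, and motors of cilia and microtubule dynamics. In dividing cells such as those of a glioma line the mitotic motors are made mainly in the G2 and M phases, and several of them have been pursued as drug targets in brain tumours.

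The kinesin genes were taken as every gene of the count table whose symbol is KIF followed by a number and optional letters, or KIFC followed by a number, without pseudogene symbols. This gave 42 of 61806 genes, of which 14 were grouped as mitotic, 15 as transport and 13 as other kinesins. Transcript levels were compared in U251-MG, an established human glioblastoma line labelled as wild type, between 2 libraries of cells infected with a lentivirus that overexpresses COL8A1 (COL8A1 cells) and 2 libraries of cells infected with the negative control lentivirus (NC cells). Both lentiviruses were built on the pCDH-CMV-MCS-EF1-puro vector, so both groups share the infection and the vector. Whether the cells were clones or pools, and whether the 2 libraries within each group were grown as separate cultures, is not stated in the labels. Each p-value therefore reflects no more than library-to-library spread, possibly of technical origin. The design text names the comparison of the 2 transcriptomes as the purpose.

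The libraries held 27923796 to 33576228 counts, and COL8A1 had 4290 and 2259 counts in COL8A1 replicates 1 and 2, against 77 and 82 in NC replicates 1 and 2. The glial markers VIM, NES and SOX2 were well expressed in all 4 libraries, while GFAP was at 2.05 and 1.84 CPM (read counts scaled to library size) in COL8A1 cells, against 0.685 and 0.564 CPM in NC cells. All 7 glial markers were on the higher side in COL8A1 cells, 3 of them with an unadjusted edgeR p under 0.05, where 3.44% of all genes tested were higher at that limit, and 0 with an adjusted p under it. DESeq2 called 1 of the 7, the glutamate transporter gene SLC1A3 (DESeq2 adjusted p = 1.48e-08), at 52.8 and 59.2 CPM in COL8A1 cells, against 27.3 and 27.2 CPM in NC cells. Their sum was 4395 and 3817 CPM in COL8A1 replicates 1 and 2, against 3599 and 4093 CPM in NC replicates 1 and 2, and their part in the values of the kinesins and their partners was not tested. Of 5 neuronal markers, RBFOX3, SNAP25 and SYP were at or near 0 and SYT1 and STMN2 were detected. Of the 9 markers of immune, endothelial and epithelial cells, PTPRC, AIF1, PECAM1, EPCAM and CDH1 were each below 0.5 CPM in every library, VWF and CD68 were below 6 CPM, KRT8 reached 399 CPM and CDH5 reached 78.3 CPM. Of these 9 and the 5 neuronal markers, only SYT1, STMN2, CD68, VWF, CDH5 and KRT8 were tested, and 0 had an unadjusted edgeR p under 0.05. The rest were too low to be tested.

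No kinesin gene passed the test between COL8A1 and NC cells. The overexpressed gene COL8A1 itself, 43.7-fold higher in COL8A1 cells, also missed the edgeR threshold with an adjusted p of 0.0681, and passed in DESeq2 with an adjusted p of 1.39e-81. Of the 42 genes, 35 passed the filter on low counts, and 0 of these 35 had an adjusted p under 0.05 in edgeR, where 0.0117% of all 17030 genes tested did. At an unadjusted p under 0.05 the count was also 0 of 35, against 6.07% of all genes tested, and the smallest unadjusted p of a kinesin was 0.131 (adjusted p = 0.835). DESeq2 called 0 kinesins, against 0.726% of the genes for which it gave an adjusted p. The groups did not overlap for 7 of the 35 genes, 4 higher and 3 lower in COL8A1 cells, where 37.5% of all genes tested did not overlap, so the share among kinesins was no higher than the background. In bulk RNA, fewer cells in a phase of the cycle and less RNA per cell cannot be told apart.

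The intervals bound the change between the libraries of the 2 groups. They rest on the spread between these libraries, so they set no bound on a difference between separate cultures. The 95% interval of the fold change (edgeR estimate, with its standard error and 4.64 degrees of freedom) lay within 1.5-fold in either direction for 24 of the 35 tested kinesins, against 44.9% of all genes tested, and within 2-fold for 30 of the 35, against 63.9%. For 12 of the 13 tested mitotic kinesins it lay within 1.5-fold. The 13 tested transport kinesins lay within 2-fold and 9 of them within 1.5-fold, and the 9 tested other kinesins included 5 within 2-fold and 3 within 1.5-fold. Genes with many counts have narrow intervals, and most mitotic kinesins were among them.

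**Figure D1:**
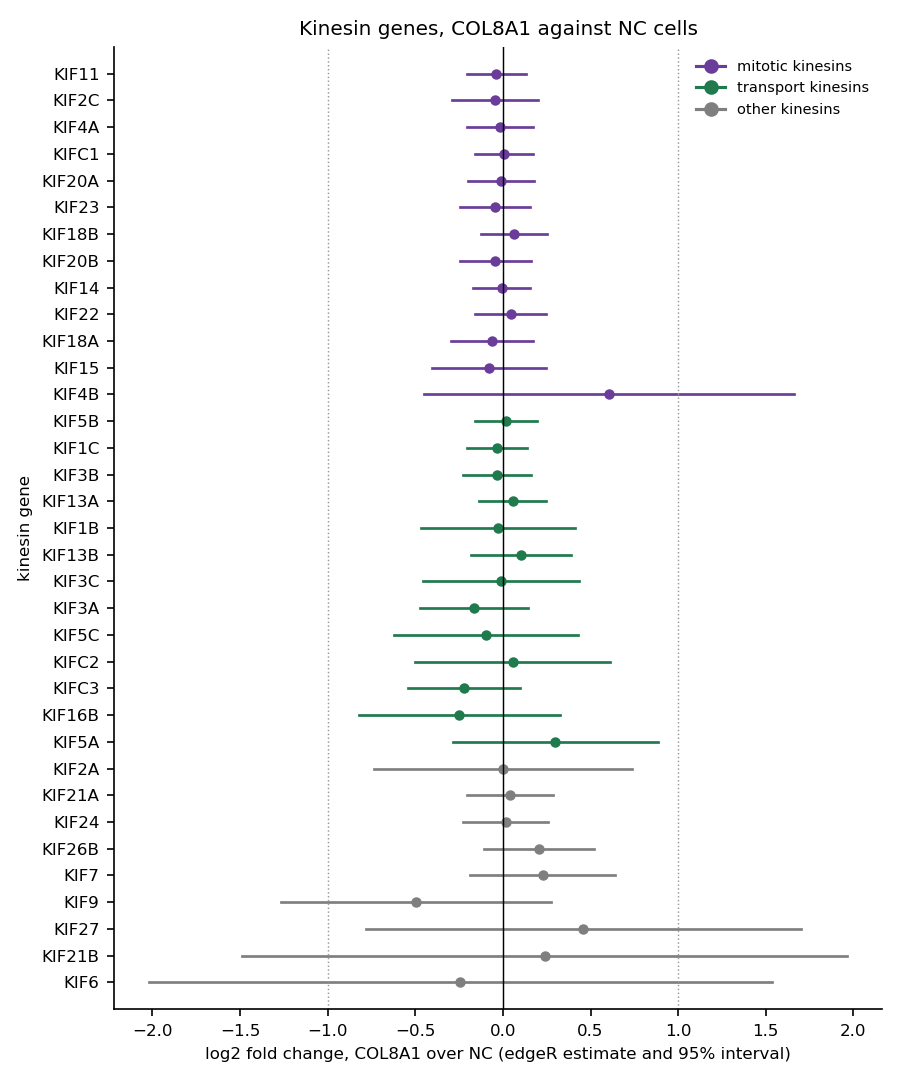
Log2 fold change of each tested kinesin gene, COL8A1 over NC cells, from edgeR (points) with its 95% interval (lines), coloured by group, with dotted lines at a 2-fold change. Each interval includes 0, and the widest belong to KIF6, KIF21B, KIF27 and KIF4B, which have few counts.

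The mitotic kinesins had a median log2 fold change of -0.016, the transport kinesins one of -0.029 and the other kinesins one of 0.042, beside 0.001 over all genes tested. Of the tested members, 4 mitotic kinesins were on the higher side and 9 on the lower side, 5 transport kinesins were higher and 8 lower, and 7 other kinesins were higher and 2 lower, where 49.8% of all genes tested were on the lower side. The balance between mitotic and transport motors was nearly the same in all libraries. Mitotic kinesins took 53.70% and 53.54% of the kinesin counts in COL8A1 replicates 1 and 2, and 53.93% and 54.25% in NC replicates 1 and 2. Transport kinesins took 38.85% and 39.09% in COL8A1 cells, against 39.43% and 38.29% in NC cells. The sum of the mitotic kinesins was 1818 and 1919 CPM in COL8A1 replicates 1 and 2, and 1894 and 1896 CPM in NC replicates 1 and 2, so that COL8A1 replicate 1 was the lowest and COL8A1 replicate 2 the highest of the 4 libraries.

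**Figure D2:**
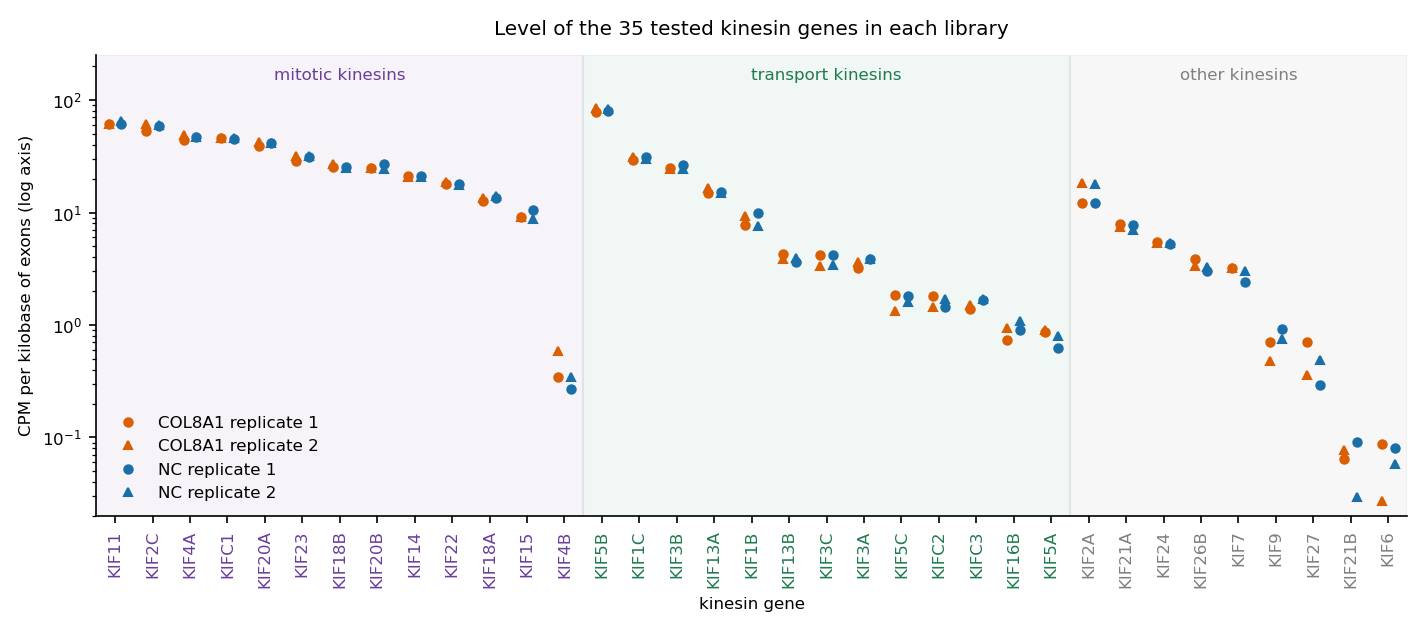
Level of the 35 tested kinesin genes in each library, in CPM per kilobase of exons on a log axis, with COL8A1 cells left (orange) and NC cells right (blue) of each position and circles and triangles for replicates 1 and 2. The 4 libraries lie close together for the abundant genes, KIF2A parts by replicate number, and KIF5B, KIF11 and KIF2C are the highest.

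The promoters of the mitotic and transport groups were set side by side. The cell cycle homology region, a short element near the start of many genes of G2 and mitosis through which the DREAM and MuvB complexes act, was searched as TTTGAA or TTCGAA on both strands, and the CCAAT box, the site of the activator NF-Y, as CCAAT on both strands. In the window from 80 bases before to 50 bases after the start (RefSeq promoters, GRCh38.p14), the first element was present in 11 of 14 mitotic kinesins, 0 of 11 transport kinesins and 1 of 9 other kinesins with a promoter in the table, against 7.8% of 27305 genes. The CCAAT box was present in 10 of 14 mitotic, 2 of 11 transport and 3 of 9 other kinesins, against 21.7% of all genes. In the whole window of 300 bases the shares of genes with the first element were 78.6% of mitotic, 9.1% of transport and 11.1% of other kinesins, against 19.5% of all genes. Shares are given without a test. A match is a description of letters, and the starts are those of RefSeq, which can differ from the GENCODE gene ends given further on.

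The 60 bases before the start are shown for 6 mitotic kinesins with the element there and for the 3 transport kinesins with the highest levels. The mitotic ones were chosen for holding it, so the contrast between the stretches follows from the choice. KIF14, KIF18B, KIF20B, KIF4B and KIFC1 hold the element only after the start, and KIF2B, KIF2C and KIF20A hold none in the window. Capitals mark the element, which reads TTCAAA where it lies on the other strand.
KIF11: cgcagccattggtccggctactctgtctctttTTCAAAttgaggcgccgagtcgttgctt
KIF4A: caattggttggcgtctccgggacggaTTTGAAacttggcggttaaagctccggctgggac
KIF23: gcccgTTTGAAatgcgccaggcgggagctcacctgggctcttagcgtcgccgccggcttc
KIF22: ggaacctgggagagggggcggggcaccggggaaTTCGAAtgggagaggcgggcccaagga
KIF18A: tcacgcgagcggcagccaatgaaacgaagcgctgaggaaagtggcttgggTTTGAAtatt
KIF15: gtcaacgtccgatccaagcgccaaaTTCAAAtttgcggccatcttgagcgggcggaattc
KIF5B: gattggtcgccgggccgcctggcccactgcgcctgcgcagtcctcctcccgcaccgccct
KIF1C: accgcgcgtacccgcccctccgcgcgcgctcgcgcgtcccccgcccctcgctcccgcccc
KIF3B: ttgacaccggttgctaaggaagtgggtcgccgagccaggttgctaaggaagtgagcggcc
These stretches lie at chr10:92593070-92593129 (plus strand) for KIF11, chrX:70290044-70290103 (plus) for KIF4A and chr15:69414289-69414348 (plus) for KIF23. They lie at chr16:29790691-29790750 (plus) for KIF22, chr11:28108157-28108216 (minus) for KIF18A and chr3:44761734-44761793 (plus) for KIF15. For the transport kinesins they lie at chr10:32056426-32056485 (minus) for KIF5B, chr17:4997890-4997949 (plus) for KIF1C and chr20:32277591-32277650 (plus) for KIF3B. The element begins 28 bases before the start in KIF11, 34 in KIF4A, 55 in KIF23, 27 in KIF22, 10 in KIF18A and 35 in KIF15. The gene KIF5B holds 1 match farther out, beginning 140 bases before its start, and none in the stretch shown.

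**Figure D3:**
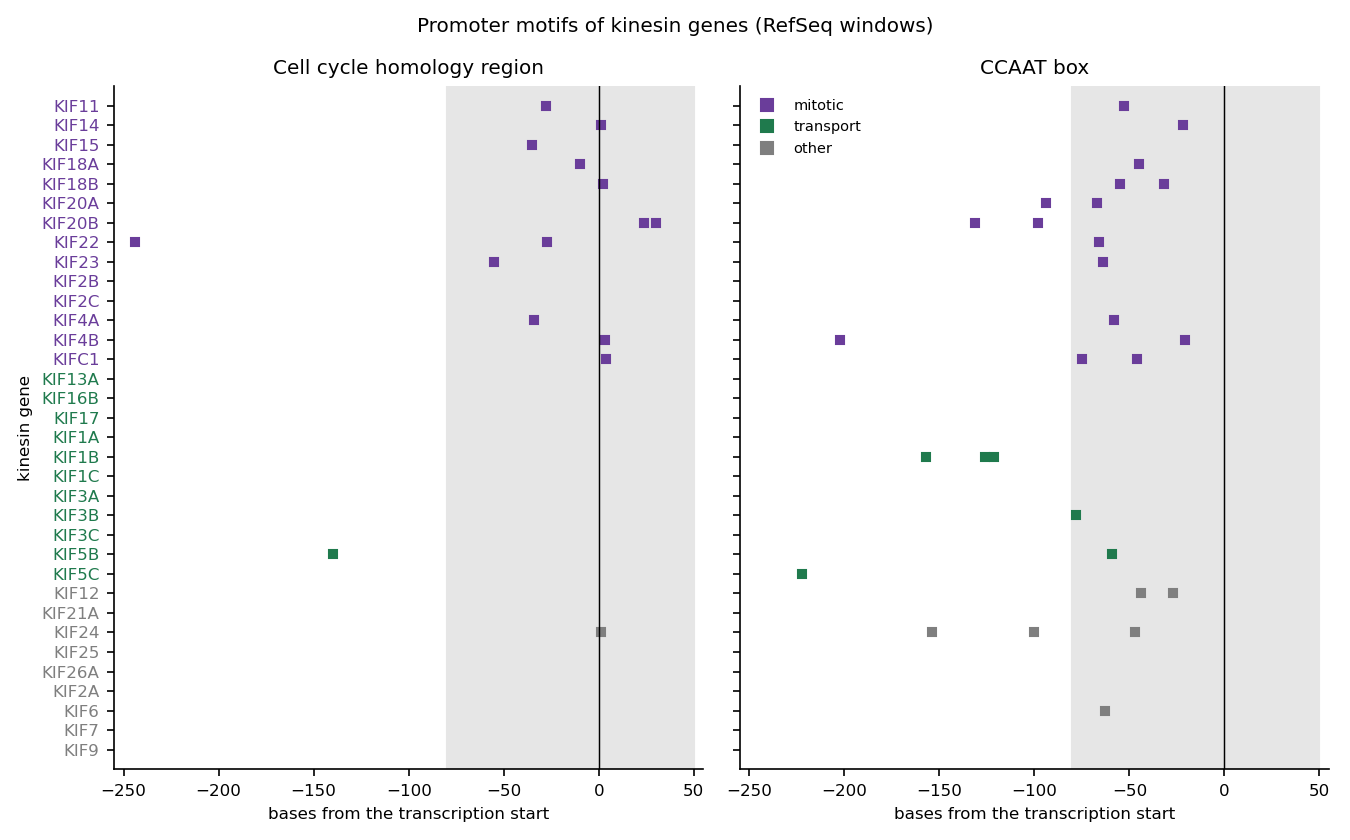
First base of each match to the cell cycle homology region (left) and the CCAAT box (right) in the promoter windows of the kinesin genes, in bases from the transcription start, coloured by group, with grey shading from 80 bases before to 50 bases after the start. Matches of mitotic kinesins gather near the start in both panels, while 11 transport kinesins hold no match to the first element in the shaded window.

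Among the mitotic kinesins KIF11 and KIF2C had the highest levels per length of exons. KIF11 (Eg5; chromosome 10, 92593286 to 92655395, plus strand, GENCODE 29), which slides spindle microtubules apart and keeps the spindle bipolar, averaged 61.4 CPM per kilobase in COL8A1 cells and 63.0 CPM per kilobase in NC cells. It was at 296 and 301 CPM in COL8A1 replicates 1 and 2, against 296 and 316 CPM in NC replicates 1 and 2. The groups overlapped, and the fold change had a 95% interval of 0.868 to 1.09 (log2 fold change -0.037 ± 0.063 SE, adjusted p = 0.941 in edgeR). KIF15, which can share this task with KIF11, was at 48.3 and 48.2 CPM in COL8A1 cells, against 55.9 and 46.1 CPM in NC cells. Its NC libraries stood on either side of both COL8A1 libraries.

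KIF2C (MCAK; chromosome 1, 44739818 to 44767767, plus strand) takes microtubules apart at centromeres and corrects wrong attachments of chromosomes. It was at 193 and 225 CPM in COL8A1 replicates 1 and 2, against 213 and 218 CPM in NC replicates 1 and 2. The spread lay within the COL8A1 group, which held both the lowest and the highest library (log2 fold change -0.045 ± 0.094 SE, adjusted p = 0.953 in edgeR). KIFC1 (HSET; chromosome 6, 33391536 to 33409924, plus strand) walks to the minus end, focuses spindle poles and gathers extra centrosomes. It was at 154 and 153 CPM in COL8A1 cells, against 151 and 155 CPM in NC cells, and its interval of 0.896 to 1.13 in fold change was among the narrowest of the family. The pseudogene RPL12P1, which covers 12.7% of its exon bases on the other strand, had at most 6 counts in any library. KIF18A, which damps the swings of aligned chromosomes, was at 59.0 and 63.3 CPM in COL8A1 cells, against 62.4 and 65.5 CPM in NC cells, and its groups overlapped. KIF18B, which limits the length of astral microtubules, was at 118 and 126 CPM in COL8A1 cells, against 117 and 116 CPM in NC cells. It was the only mitotic kinesin of the 13 tested whose groups did not overlap, by a small margin (log2 fold change 0.064 ± 0.072 SE, adjusted p = 0.896 in edgeR).

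The chromokinesins, which ride on chromosome arms, were KIF4A, KIF4B and KIF22. KIF4A (chromosome X, 70290090 to 70420832, plus strand), which also sets the length of the central spindle, was at 201 and 219.7 CPM in COL8A1 cells, against 214 and 211 CPM in NC cells. KIF22 was at 77.4 and 80.6 CPM in COL8A1 cells, against 77.6 and 75.6 CPM in NC cells. Both genes had overlapping groups, and an antisense gene that covers 13.0% of the exon bases of KIF22 had at most 11 counts in any library. KIF4B (chromosome 5, 155013755 to 155018132, plus strand), an intronless copy of KIF4A, had 48 and 72 counts in COL8A1 replicates 1 and 2, against 36 and 51 in NC replicates 1 and 2, and its estimate was the largest of the family (log2 fold change 0.60 ± 0.40 SE, 95% interval of the fold 0.732 to 3.16, adjusted p = 0.852 in edgeR). The groups overlapped between COL8A1 replicate 1 and NC replicate 2, and the log2 fold change was 0.16 without COL8A1 replicate 2 and 0.94 without COL8A1 replicate 1.

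KIF4B is hard to count because its sequence follows that of KIF4A. Over 3696 aligned coding bases 95.9% were identical, and 606 of the 4329 distinct 50-base words of the KIF4B transcript also occurred in KIF4A transcripts. The first 150 coding bases of both (GENCODE 29 transcripts) show how alike they are, with the 5 differing bases in capitals.
KIF4A: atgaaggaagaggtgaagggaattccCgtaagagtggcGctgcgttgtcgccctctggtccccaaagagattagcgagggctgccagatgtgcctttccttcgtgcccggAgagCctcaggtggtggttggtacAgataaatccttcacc
KIF4B: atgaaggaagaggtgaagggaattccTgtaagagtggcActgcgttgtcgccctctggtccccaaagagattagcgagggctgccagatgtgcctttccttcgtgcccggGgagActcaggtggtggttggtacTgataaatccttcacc
KIF4A had 6391 and 6102 counts in COL8A1 replicates 1 and 2, against 6562 and 7127 in NC replicates 1 and 2, many times those of KIF4B. How reads that match both genes were assigned is not given in the sources used here, so the value of KIF4B is uncertain.

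The kinesins of cytokinesis were also close between the groups. KIF20A (MKLP2; chromosome 5, 138178719 to 138187715, plus strand), which brings the Aurora B complex to the central spindle, was at 156 and 169 CPM in COL8A1 cells, against 163 and 164 CPM in NC cells. KIF23 (MKLP1), which forms the centralspindlin complex with RACGAP1, was at 190.2 and 211 CPM in COL8A1 cells, against 205 and 209 CPM in NC cells. In both genes the COL8A1 libraries stood on either side of the NC libraries. KIF14, which recruits citron kinase to the midbody, was at 153 and 149.8 CPM in COL8A1 cells, against 153 and 152 CPM in NC cells. KIF20B was at 170.1 and 170.3 CPM in COL8A1 cells, against 184 and 166 CPM in NC cells. The groups of KIF14 and KIF20B overlapped. KIF2B, a relative of KIF2C, had 0 counts in all 4 libraries, which allows at most 0.107 CPM (3 counts) in the smallest library.

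Of the transport kinesins, KIF5B (chromosome 10, 32009010 to 32056431, minus strand), the kinesin-1 heavy chain made in nearly all cells, had the highest level per length of all 42 genes. It averaged 82.3 CPM per kilobase in COL8A1 cells and 81.3 CPM per kilobase in NC cells. Its libraries were at 463 and 504 CPM in COL8A1 cells, against 468 and 489 CPM in NC cells, so that both NC libraries lay between the COL8A1 libraries (log2 fold change 0.016 ± 0.068 SE, 95% interval of the fold 0.894 to 1.14, adjusted p = 0.981 in edgeR). The neuronal kinesin-1 heavy chains KIF5A and KIF5C were far lower per length, at 0.878 and 1.60 CPM per kilobase in COL8A1 cells, against 0.713 and 1.71 CPM per kilobase in NC cells. KIF5A was at 5.38 and 5.62 CPM in COL8A1 cells, against 3.91 and 5.01 CPM in NC cells, without overlap (log2 fold change 0.30 ± 0.22 SE, adjusted p = 0.858 in edgeR). KIF5C was at 17.1 and 12.4 CPM in COL8A1 cells, against 16.7 and 14.8 CPM in NC cells, and both its highest and its lowest library belonged to COL8A1 cells.

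The kinesin-3 motors carry vesicles and endosomes. KIF1C (chromosome 17, 4997948 to 5028401, plus strand) was at 249.9 and 265 CPM in COL8A1 cells, against 269 and 258 CPM in NC cells, and KIF13A, which moves recycling endosomes, at 167 and 182 CPM in COL8A1 cells, against 169.6 and 167 CPM in NC cells. KIF1B (chromosome 1, 10210805 to 10381603, plus strand), which carries mitochondria and synaptic vesicle precursors, was at 137 and 165 CPM in COL8A1 replicates 1 and 2, against 175 and 133 CPM in NC replicates 1 and 2, with 1 high and 1 low library in each group. KIF13B was at 47.5 and 42.9 CPM in COL8A1 cells, against 40.2 and 43.9 CPM in NC cells (log2 fold change 0.10 ± 0.11 SE, adjusted p = 0.889 in edgeR). KIF16B, which binds early endosomes, was at 5.70 and 7.24 CPM in COL8A1 cells, against 6.95 and 8.40 CPM in NC cells (log2 fold change -0.25 ± 0.22 SE, adjusted p = 0.874 in edgeR). The groups of these 5 genes overlapped. KIF1A, the neuronal carrier of synaptic vesicle precursors, had 0 counts in every library.

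The kinesin-2 motors, which drive transport into cilia, are built from KIF3A and KIF3B with the adaptor KIFAP3. KIF3C can take the place of KIF3B, so that both pairs share KIF3A. KIF3B (chromosome 20, 32277664 to 32335011, plus strand) was at 151 and 149 CPM in COL8A1 cells, against 160.1 and 147 CPM in NC cells. KIF3A was at 21.8 and 25.1 CPM in COL8A1 cells, against 26.3 and 26.3 CPM in NC cells, without overlap (log2 fold change -0.16 ± 0.12 SE, adjusted p = 0.852 in edgeR). KIF3C was at 26.8 and 21.4 CPM in COL8A1 cells, against 26.6 and 21.98 CPM in NC cells. Per length, KIF3B averaged 24.6 CPM per kilobase in COL8A1 cells and 25.2 CPM per kilobase in NC cells, several times the level of KIF3A (3.42 CPM per kilobase in COL8A1 cells and 3.84 in NC cells) and of KIF3C (3.76 in COL8A1 cells and 3.79 in NC cells). Another kinesin-2, KIF17 of neurons and cilia, had 10 and 8 counts in COL8A1 replicates 1 and 2, against 4 and 0 in NC replicates 1 and 2, and was too low to be tested.

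KIFC3 (chromosome 16, 57758217 to 57863053, minus strand), a minus-end motor that acts at the Golgi and at cell junctions, had the smallest unadjusted p of the family. It was at 13.3 and 14.4 CPM in COL8A1 cells, against 15.9 and 16.3 CPM in NC cells, without overlap (log2 fold change -0.22 ± 0.12 SE, 95% interval of the fold 0.688 to 1.07, adjusted p = 0.835 in edgeR). KIFC2 was at 8.06 and 6.45 CPM in COL8A1 cells, against 6.36 and 7.60 CPM in NC cells, with overlap. It shares 17.8% of its exon bases with FOXH1 on the other strand, which had 22 and 12 counts in COL8A1 cells, against 4 and 4 in NC cells.

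Among the other kinesins, KIF2A (chromosome 5, 62306162 to 62537249, plus strand), a microtubule depolymerase of spindle poles and growing axons, parted by replicate number and not by group. It was at 57.4 and 86.5 CPM in COL8A1 replicates 1 and 2, against 57.8 and 85.9 CPM in NC replicates 1 and 2. The group means were 72.0 ± 20.6 CPM in COL8A1 cells and 71.9 ± 19.9 CPM in NC cells (SD, n = 2 each), and the log2 fold change was 0.002 (SE 0.28, edgeR adjusted p = 1.0). The gap between the libraries of a group was 0.59 in COL8A1 cells and 0.57 in NC cells on the log2 scale. A gap over 0.5 in both groups, a limit set after these values were seen, was found in 356 of the 12049 genes whose mean reached 100 counts (2.95%), and in 161 of them (1.34% of the genes) the same replicate number was the higher one in both groups. KIF2A shares 9.0% of its exon bases with IPO11 on its strand, which had 1125 and 1048 counts in COL8A1 replicates 1 and 2, against 1255 and 1426 in NC replicates 1 and 2.

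**Figure D4:**
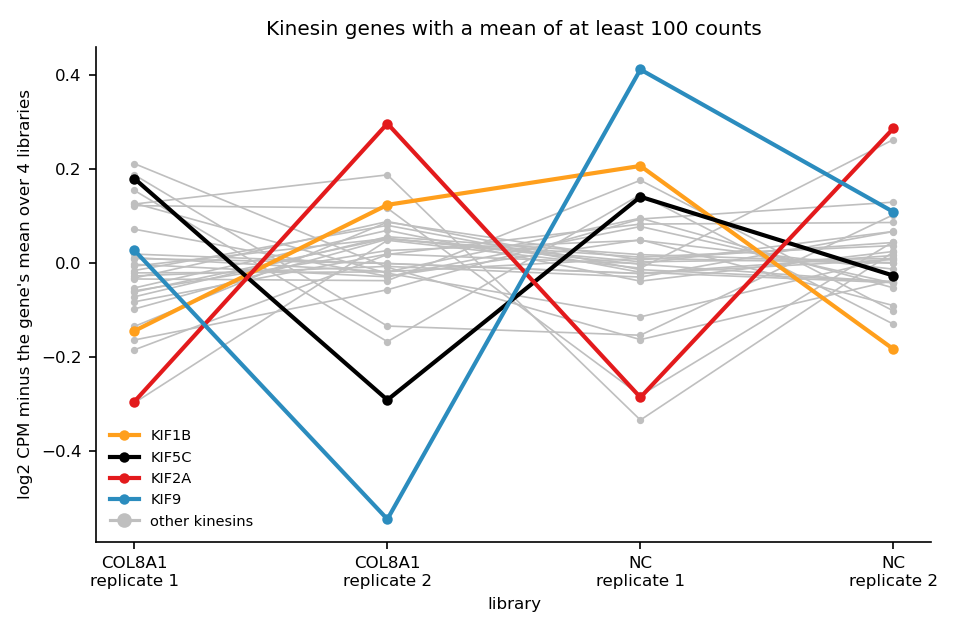
Log2 CPM of each tested kinesin gene whose mean reached 100 counts, minus its mean over the 4 libraries, with lines joining the values of a gene. KIF2A is high in replicate 2 of both groups, KIF1B is high in COL8A1 replicate 2 and NC replicate 1, and most other genes stay close to 0.

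KIF26B (chromosome 1, 245154985 to 245709431, plus strand), a kinesin linked to noncanonical Wnt signalling, was at 56.1 and 48.2 CPM in COL8A1 cells, against 43.3 and 47.3 CPM in NC cells. It did not overlap between the groups (log2 fold change 0.20 ± 0.12 SE, adjusted p = 0.835 in edgeR). KIF7 (chromosome 15, 89608789 to 89655451, minus strand), which organizes the tip of the cilium for Hedgehog signalling, was at 16.0 and 16.0 CPM in COL8A1 cells, against 12.1 and 15.2 CPM in NC cells (log2 fold change 0.23 ± 0.16 SE, adjusted p = 0.852 in edgeR). KIF7 shares 11.8% of its exon bases with TICRR on the other strand. TICRR had 2196 and 1863 counts in COL8A1 replicates 1 and 2, against 2113 and 2601 in NC replicates 1 and 2. KIF7 had 510 and 444 counts in COL8A1 cells, against 372 and 513 in NC cells. With all counts of both genes summed the log2 fold change was -0.044. That sum mostly follows TICRR and does not give the direction of KIF7. KIF24, which holds back the growth of cilia at the mother centriole, was at 33.2 and 32.8 CPM in COL8A1 cells, against 32.3 and 33.0 CPM in NC cells. KIF21A, which slows microtubule growth at the cell edge, was at 79.9 and 74.5 CPM in COL8A1 cells, against 78.6 and 71.4 CPM in NC cells. The groups of KIF24 and KIF21A overlapped.

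KIF9, a motor of motile cilia and sperm tails in mice, had 131 and 77 counts in COL8A1 replicates 1 and 2, against 165 and 147 in NC replicates 1 and 2. The groups did not overlap, and the fold had a 95% interval of 0.415 to 1.21 (log2 fold change -0.50 ± 0.29 SE, adjusted p = 0.835 in edgeR). The gene shares 14.9% of its exon bases with KIF9-AS1 on the other strand, which had 58 and 45 counts in COL8A1 cells, against 125 and 102 in NC cells (log2 fold change -1.04 ± 0.29 SE, adjusted p = 0.688 in edgeR). The strand setting of the counting is not given in the sources used here, so the reads of the pair cannot be told apart in the shared bases. KLHL18, also on the other strand, covers 3.0% of the exon bases of KIF9. It had 1264 and 1109 counts in COL8A1 replicates 1 and 2, against 1322 and 1452 in NC replicates 1 and 2. With all counts of KIF9-AS1 and KLHL18 added, the log2 fold change of KIF9 was -0.19. KLHL18 had far more counts than KIF9, so this sum mostly follows KLHL18 and does not give the change of KIF9. A sum with KIF9-AS1 alone was not fitted. KIF27 had 116 and 51 counts in COL8A1 cells, against 46 and 84 in NC cells, and 31.7% of its 50-base words also occurred in other counted genes. KIF21B and KIF6 were below 1.2 CPM in every library. KIF12, KIF25 and KIF26A had at most 3 counts in any library, and KIF19 had 0 counts in all.

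The partners of the kinesins were described in 4 lists. Of 19 kinesin light chains and adaptors 17 were tested, with 8 above and 9 below 0 and -0.015 as the median log2 fold change. At an unadjusted p under 0.05, 0 were higher and 2 were lower in COL8A1 cells, where 3.44% of all genes tested were higher and 2.63% lower at that limit, and 0 passed the edgeR threshold over all genes. PLEKHM2 (SKIP), an adaptor of kinesin-1 on lysosomes, was at 68.4 and 65.1 CPM in COL8A1 cells, against 82.4 and 75.8 CPM in NC cells (log2 fold change -0.24 ± 0.088 SE, adjusted p = 0.804 in edgeR). MAPK8IP1 (JIP1), a scaffold that binds kinesin light chains, was at 13.0 and 15.0 CPM in COL8A1 cells, against 17.9 and 21.3 CPM in NC cells (log2 fold change -0.48 ± 0.15 SE, adjusted p = 0.756 in edgeR). The unadjusted p of PLEKHM2 exceeded 0.05 in DESeq2, with the replicate block and whichever library was left out, and that of MAPK8IP1 without COL8A1 replicate 1 or NC replicate 2. For the main light chains, the log2 fold change of KLC1 was 0.062 (SE 0.075) and that of KLC2 -0.056 (SE 0.070). For KIFAP3 it was -0.041 (SE 0.097). XRCC3 on the other strand covers 29.9% of the exon bases of KLC1. It had 1025 and 824 counts in COL8A1 replicates 1 and 2, against 789 and 1208 in NC replicates 1 and 2. With the strand setting unknown, the reads of KLC1 and XRCC3 cannot be told apart in the shared bases.

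Of the 19 spindle and midzone partners 5 were on the higher and 14 on the lower side, the median log2 fold change was -0.056, and 1 was lower at an unadjusted p under 0.05, where 2.63% of all genes tested were. This was AURKB, the Aurora B kinase that KIF20A carries, at 58.4 and 54.98 CPM in COL8A1 cells, against 64.4 and 71.1 CPM in NC cells (log2 fold change -0.26 ± 0.096 SE, adjusted p = 0.816 in edgeR). CENPE, a kinesin of the kinetochore whose symbol lies outside the KIF names, was at 189 and 189.6 CPM in COL8A1 cells, against 194 and 195 CPM in NC cells. MKI67, a marker of cycling cells, was at 1024 and 1032 CPM in COL8A1 cells, against 1034 and 1028 CPM in NC cells, with overlapping groups (log2 fold change -0.005, SE 0.045). The unadjusted p of AURKB exceeded 0.05 in DESeq2, with library sizes alone, with upper-quartile factors, with the replicate block and whichever library was left out. The list's median deviation from the gene means was -0.083 and 0.016 in COL8A1 replicates 1 and 2, against 0.007 and 0.055 in NC replicates 1 and 2, on the scale of log2(CPM + 0.5), and that of the mitotic kinesins was -0.034 and 0.050 in COL8A1 cells, against 0.002 and 0.000 in NC cells. COL8A1 replicate 1 was the lowest library in both.

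Dynein, the motor that runs against most kinesins, and its cofactor dynactin had 22 of 24 genes tested, 8 on the higher and 14 on the lower side. Their median log2 fold change was -0.013. At an unadjusted p under 0.05, 2 were higher and 0 lower, where the shares over all genes tested were 3.44% and 2.63%. BICD1, an adaptor that joins dynein to vesicles, was at 90.7 and 113 CPM in COL8A1 cells, against 73.8 and 76.4 CPM in NC cells (log2 fold change 0.44 ± 0.13 SE, adjusted p = 0.724 in edgeR). DYNC1I1, an intermediate chain of dynein, was at 42.8 and 41.2 CPM in COL8A1 cells, against 35.6 and 33.5 CPM in NC cells (log2 fold change 0.28 ± 0.096 SE, adjusted p = 0.797 in edgeR). The groups of neither gene overlapped. The unadjusted p of DYNC1I1 exceeded 0.05 in DESeq2, with the replicate block and whichever library was left out, and that of BICD1 without either NC library. The 14 tubulins had 5 genes higher and 9 lower, a median of -0.093 and 0 genes with an unadjusted edgeR p under 0.05. TUBA1A (log2 fold change 0.57 ± 0.27 SE in edgeR) had an unadjusted p of 0.0196 and an adjusted p of 0.714 in DESeq2. The groups did not overlap for 8 of the 14 tubulins, 1 higher and 7 lower in COL8A1 cells. Over all genes tested 37.5% did not overlap, 18.9% higher and 18.6% lower. DESeq2 called 0 genes in the 4 lists.

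**Figure D5:**
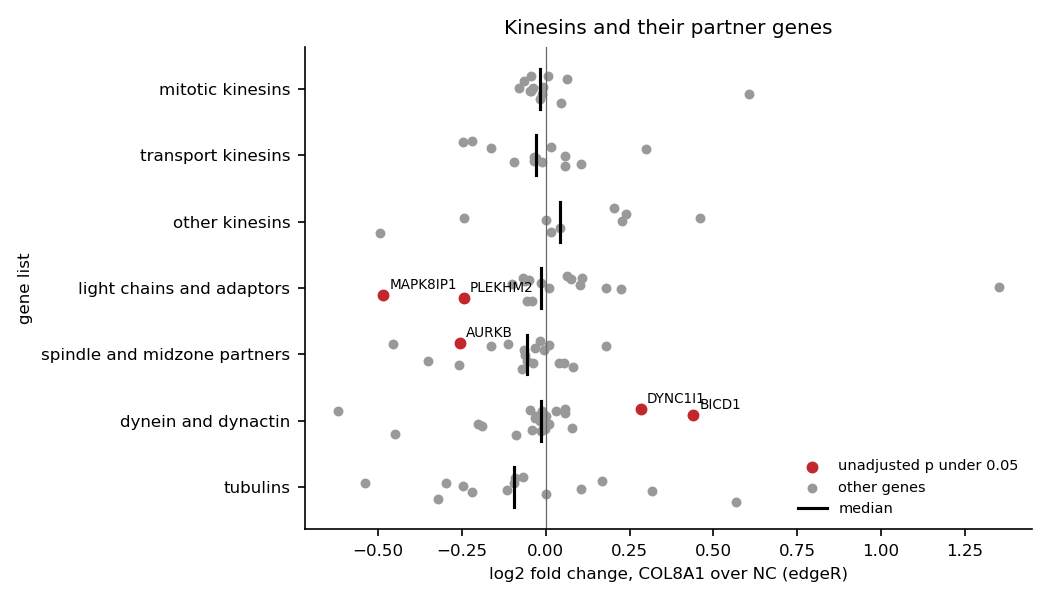
Log2 fold change of each tested gene, COL8A1 over NC cells, in the 3 kinesin groups and the 4 partner lists, with black bars for the medians and red points for an unadjusted edgeR p under 0.05. The kinesin rows hold no red point, and MAPK8IP1 stands farthest from 0 among the red points at -0.48.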

How the data were processed

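Total RNA of 4 libraries was sequenced. The authors deposited raw counts of reads for each gene, not normalized. The submitters' processing notes name HISAT2 2.2.1, Trim Galore 0.6.9, featureCounts (with the version 0.3) and the build hg38. Parameters, strand setting and annotation release were not given in the sources used here. The table had 1 line that named no gene, with 0 reads, which was left out. How PCR copies were treated was not given either. The intervals cover counting error and library spread only.

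Counts were tested in R 4.3.3 with edgeR 4.0.16 (filterByExpr, TMM factors of 0.993 to 1.007, quasi-likelihood fit with the group as its only term, 2 residual and 2.64 prior degrees of freedom) over 17030 genes, with Benjamini-Hochberg adjustment over all of them and a threshold of 0.05. Standard errors were the log2 fold change divided by the root of the F statistic. CPM used TMM-scaled library sizes, and levels per length used the merged exons of GENCODE release 29 (same build), which understate genes with many alternative exons. The 42 genes matched GENCODE, and 34 had a promoter in the RefSeq table. Words of 50 bases were compared with the transcripts of all counted genes. The fits were also run on simulated counts, as a check that the median estimated fold change was near the simulated one. That check does not show how many changed genes the tests miss. Replicate numbers do not pair the samples by any label.

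The kinesin genes, their groups and the lists were chosen with earlier results of these data known. One adaptor gene is not reported here and was left out of its list, though it stayed in the fit over all genes. Genes given with full values were those with an unadjusted p under 0.05, the 6 largest changes with a mean of at least 5 CPM, the 4 largest gaps within a group with a mean of at least 100 counts, the 5 highest levels per length of each group, and list members with an unadjusted p under 0.05. Other kinesins are given to account for the family. The alternatives were other scaling factors and filters, DESeq2 1.42.0, limma-voom (limma 3.58.1), the replicate number as a block, overlapping genes summed, and each library left out.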

Additional observations from a re-analysis of the deposited data

Results flagged for a closer look

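KIF26B-AS1, an antisense gene named after KIF26B and outside the kinesin genes compared, averaged 0.418 CPM in COL8A1 cells and 0.125 CPM in NC cells (n = 2 each). It drew notice because both COL8A1 libraries (14 and 11 counts) exceeded both NC libraries (4 and 4 counts) and the limit of 3 counts. Only higher values were looked for, and in CPM both COL8A1 libraries exceeded both NC libraries for 18.9% of all genes tested. Its log2 fold change of 1.72 (SE 0.64) missed the threshold over all genes (edgeR adjusted p = 0.816). KIF26B itself was at 56.1 and 48.2 CPM in COL8A1 cells, against 43.3 and 47.3 CPM in NC cells, without overlap (edgeR adjusted p = 0.835).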

How the results depend on the processing

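The number of kinesins called was 0 in the main analysis and under all 13 alternatives, with smallest adjusted p-values from 0.647 to 0.999, and it was 0 whichever library was left out. At an unadjusted p under 0.05 the count was 1 without NC replicate 1 (KIF17) and 0 otherwise. Over all genes the 2 edgeR calls became 143 in DESeq2, 17 without a low-count filter, 1 with the replicate number as a block, and 0 to 3 with 1 library left out. The deviations of libraries with the same number had a correlation of -0.036 over 17030 genes, so the numbers were not taken as pairs. The group medians ranged from -0.050 to 0.026 (mitotic), -0.097 to -0.004 (transport) and 0.006 to 0.10 (other) with 1 library left out. The log2 fold change of KIF2A turned to -0.002 in DESeq2, -0.017 in limma-voom, -0.002 without a filter and -0.064 with IPO11 summed, that of KIF7 to -0.044 and that of KIF18A to 0.043 with overlapping genes summed. TICRR had more counts than KIF7 in every library, so it weighed more in the sum for KIF7. METTL15, summed with KIF18A, covers 1.3% of the exon bases of KIF18A. All its counts entered the sum, 428 and 443 in COL8A1 replicates 1 and 2, against 327 and 293 in NC replicates 1 and 2. That sum does not give the direction of KIF18A. The causes were not tested. With 1 library left out, the log2 fold changes that changed sign ranged from -0.086 to 0.009 for KIF11, -0.16 to 0.061 for KIF2C, -0.085 to 0.047 for KIF4A, -0.013 to 0.023 for KIFC1, -0.071 to 0.046 for KIF20A, -0.13 to 0.026 for KIF23, -0.12 to 0.032 for KIF20B, -0.023 to 0.003 for KIF14 and -0.21 to 0.065 for KIF15. They ranged from -0.050 to 0.076 for KIF5B, -0.081 to 0.009 for KIF1C, -0.097 to 0.026 for KIF3B, -0.009 to 0.11 for KIF13A, -0.21 to 0.18 for KIF1B, -0.18 to 0.14 for KIF3C, -0.35 to 0.12 for KIF5C and -0.11 to 0.20 for KIFC2. They ranged from -0.33 to 0.31 for KIF2A, -0.030 to 0.11 for KIF21A, -0.12 to 0.87 for KIF27, -0.37 to 1.26 for KIF21B and -1.32 to 0.35 for KIF6. Without a change of sign, they ranged from 0.16 to 0.94 for KIF4B and from -0.81 to -0.24 for KIF9. The value of KIF9 was -0.19 with KIF9-AS1 and KLHL18 summed, in which most counts were those of KLHL18. Of the 5 partner genes with an unadjusted p under 0.05, 0 kept it with each of the 4 libraries left out in turn.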
